A study of Mus musculus with 27 samples.

Results

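The replication-dependent histone genes are the genes of the Hist1, Hist2, Hist3 and Hist4 clusters that supply the linker histone H1 and the core histones H2A, H2B, H3 and H4 for new chromatin. The members were selected on name, biotype and level: protein-coding genes whose GENCODE M21 symbol starts with Hist1h, Hist2h, Hist3h or Hist4, with a summed raw count of at least 50 over the 27 libraries. That gave 53 genes out of 51789 rows in the table. GENCODE M21 lists 67 such genes, of which 65 have a row, and 12 of those fell below the sum of 50. Hist1h2bm and Hist1h2bh have no row and were not analysed here. The summed count chose the members, so it is given as a description: just inside stood Hist1h4k with 55 counts, Hist1h3i with 65 and Hist1h2bl with 72, and just outside stood Hist2h2ab with 47, Hist1h2bf with 44 and Hist1h2ad with 40. For 3 members, Hist1h2bl, Hist1h4k and Hist1h3i, the sum reached 50 only with the young libraries of experiment 1, so counts of members are descriptions here and not support.

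The libraries were made from ovary polyA RNA of Mus musculus with a Lexogen QuantSeq kit, a method that sequences short tags near the 3′ end of transcripts. Experiment 1 held 5 young untreated, 4 aged untreated and 4 aged TRi-1-treated ovaries, and experiment 2 held 5 young untreated, 5 aged untreated and 4 aged auranofin-treated ovaries. TRi-1 is an inhibitor of thioredoxin reductase 1, and auranofin is a gold compound, used against rheumatoid arthritis, that blocks this family of enzymes. Genotype, strain, ages in weeks or months, dose, route and length of treatment are not given in the sources used here, and the labels number the replicates without saying whether a library is 1 mouse, so p-values measure the spread between libraries. The comparisons ask how the aged ovary differs from the young one and how each drug changes the aged ovary.

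Library totals ran from 6460903 to 14814381 counts. The granulosa markers Foxl2, Inha and Inhba and the oocyte genes Gdf9 and Ooep had counts in each library. The other listed granulosa markers, Amh, Fshr, Cyp19a1 and Esr2, were at 0 in at least 1 library. So were the oocyte genes Zp1, Zp3, Bmp15, Nlrp5, Oosp1 and H1foo, and Amh was at 0 in all but 1 library. The oocyte gene Zp2 was at 0 in 4 of 4 untreated aged libraries of experiment 1 and in 5 of 5 of experiment 2. Young replicate 3 of experiment 2 stood apart from the other young libraries, with an oocyte marker sum of 4.11 CPM against 45.4 to 129 in the other 4 and a theca and luteal sum of 15.99 CPM against 1415 to 3043. The haemoglobin genes took 0.289% to 22.7% of a library's counts. CPM here are counts scaled to the TMM-normalised library size, and since each transcript gives tags from 1 end, they are not divided by length. In a bulk tissue library, fewer cells of a type and less RNA per cell cannot be told apart.

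As background, most replication-dependent histone genes have no introns, and their messages are made mainly while a cell copies its DNA. Their messages end in a conserved stem-loop, bound by the stem-loop binding protein Slbp, instead of a polyA tail, and are cleaved just after it and destroyed when replication stops. Many of these genes also have a polyadenylation site further downstream, which is used in differentiated, non-dividing cells, and it is such messages that a polyA method reads most directly. The linker histone H1 binds the outside of the nucleosome, H2A pairs with H2B, and H3 pairs with H4.

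The members comprised 5 H1, 12 H2A, 14 H2B, 9 H3 and 13 H4 genes, of which 42 lie in the Hist1 cluster on chromosome 13, 8 in Hist2 on chromosome 3, 2 in Hist3 on chromosome 11 and 1, Hist4h4, on chromosome 6 (GRCm38). The stem-loop was searched on the transcript strand as a pattern of 16 bases that opens with GG and closes with CC, with 3 T and 1 A fixed between them, in the first 200 bases after the stop codon of the GENCODE M21 transcript. It was found in 38 of the 46 members with an annotated 3′ UTR (82.6%) and in 63 of 20891 other protein-coding genes (0.302%). The 30 bases around it are shown 5′ to 3′ for members that carry the results, with the stem-loop in capitals.
Hist1h2ao: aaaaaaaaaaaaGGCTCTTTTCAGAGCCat
Hist1h2ap: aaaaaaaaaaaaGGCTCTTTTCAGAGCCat
Hist2h2aa1: agctcctaaaaaGGCTCTTTTCAGAGCCac
Hist3h2a: acagacaccaaaGGCTCTTTTCAGAGCCac
Hist1h1c: aacaatccaaaaGGCTCTTTTCAGAGCCac
Hist1h4h: tacaaaaccaaaGGCCCTTTTCAGGGCCgc
Hist1h4i: atgctacttaaaGGCCCTTTTTAGGGCCac
The H1 and H2A genes shown share the same capitals, while the H4 genes differ from them in both arms of the stem. Hist1h2ao and Hist1h2ap differ from the other genes shown in the bases just before the stem-loop, which are all A.

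The run of A in Hist1h2ao and Hist1h2ap was 12 bases long and began 27 bases after the stop codon, as shown here with the run in capitals.
Hist1h2ao, bases 21 to 50 after the stop codon: gaaaagAAAAAAAAAAAAggctcttttcag
A run of at least 12 A in the same 200-base window was present in 2 of 46 members (4.35%), these 2 genes, and in 199 other protein-coding genes (0.953%). These 2 genes also had the highest mean levels of the H2A genes, over the 27 libraries of 639.9 CPM for Hist1h2ao and 91.0 CPM for Hist1h2ap. Hist1h2ao alone held 53.1% of all counts of the 53 members, and both together held 60.6%. Whether the A run takes part in how these messages were captured was not tested.

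Promoters from RefSeq (GRCm38.p6, 250 bases before to 50 after the start) were matched for 48 members. CCAAT, searched on both strands, was in 39 of 48 member promoters (81.2%) against 37.9% of all 27025 promoters of the same length. The TATA letters TATAAA were in 27 of 48 (56.2%) against 14.2%, and the octamer ATTTGCAT in 9 of 48 (18.8%) against 1.75%. CCAAT was in all 36 matched promoters of H1, H2A, H2B and H3 genes and in 3 of 12 H4 promoters, and the octamer was found in 5 of 12 H2A and 4 of 12 H2B promoters and in none of the other classes. Of the H2A and H2B genes in the annotation, members or not, 12 pairs start within 500 bases of each other in opposite directions, so that the bases between the starts are upstream of both.
Hist1h2ac, chr13:23683910-23684209, minus strand: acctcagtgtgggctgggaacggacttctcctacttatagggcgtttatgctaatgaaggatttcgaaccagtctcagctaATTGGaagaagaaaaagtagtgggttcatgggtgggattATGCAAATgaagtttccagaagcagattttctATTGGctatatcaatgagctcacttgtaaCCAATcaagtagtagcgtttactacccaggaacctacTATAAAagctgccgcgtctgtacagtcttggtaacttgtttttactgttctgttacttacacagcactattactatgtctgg
Hist1h2ao, chr13:21810117-21810416, plus strand: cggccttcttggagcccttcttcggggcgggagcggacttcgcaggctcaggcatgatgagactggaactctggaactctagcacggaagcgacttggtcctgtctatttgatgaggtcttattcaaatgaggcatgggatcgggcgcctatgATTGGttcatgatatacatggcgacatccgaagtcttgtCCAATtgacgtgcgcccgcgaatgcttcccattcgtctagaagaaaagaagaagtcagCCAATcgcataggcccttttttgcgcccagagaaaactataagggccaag
Capitals mark CCAAT, the octamer and TATAAA on either strand. The first window holds the bases between the GENCODE starts of Hist1h2ac and Hist1h2bc, which are 251 bases apart and had summed counts of 86 and 34490. The other was placed on the RefSeq start of Hist1h2ao. Its first bases lie inside Hist1h2bq, which starts at 21810197 on the minus strand, and it ends before the GENCODE start of Hist1h2ao at 21810465. The GENCODE starts of that pair are 268 bases apart, and their summed counts were 147630 for Hist1h2ao and 185 for Hist1h2bq. In both pairs, 2 genes that start on either side of the same bases thus had tag counts that differed widely. The other pairs varied: Hist1h2ap and Hist1h2br had 20886 and 175 counts, while Hist1h2ae and Hist1h2bg had 505 and 375.

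The levels of the members were far from even. Besides the pair of H2A genes, the highest means were 122.7 CPM for the H2B gene Hist1h2bc and 61.3 CPM for Hist1h1c, a linker histone found in most cell types. The highest H4 genes were Hist1h4h at 15.1 CPM and Hist1h4i at 12.7 CPM, and the highest H3 genes Hist2h3c2 and Hist2h3b stood at 4.49 and 3.16 CPM. A mean of at least 10 CPM was reached by 10 members and of at least 1 CPM by 37. A count in each of the 27 libraries was seen for 10 members, among them Hist1h1c, Hist1h2bc, Hist3h2a, Hist2h2be, Hist1h4h and Hist1h4i.

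**Figure D1:**
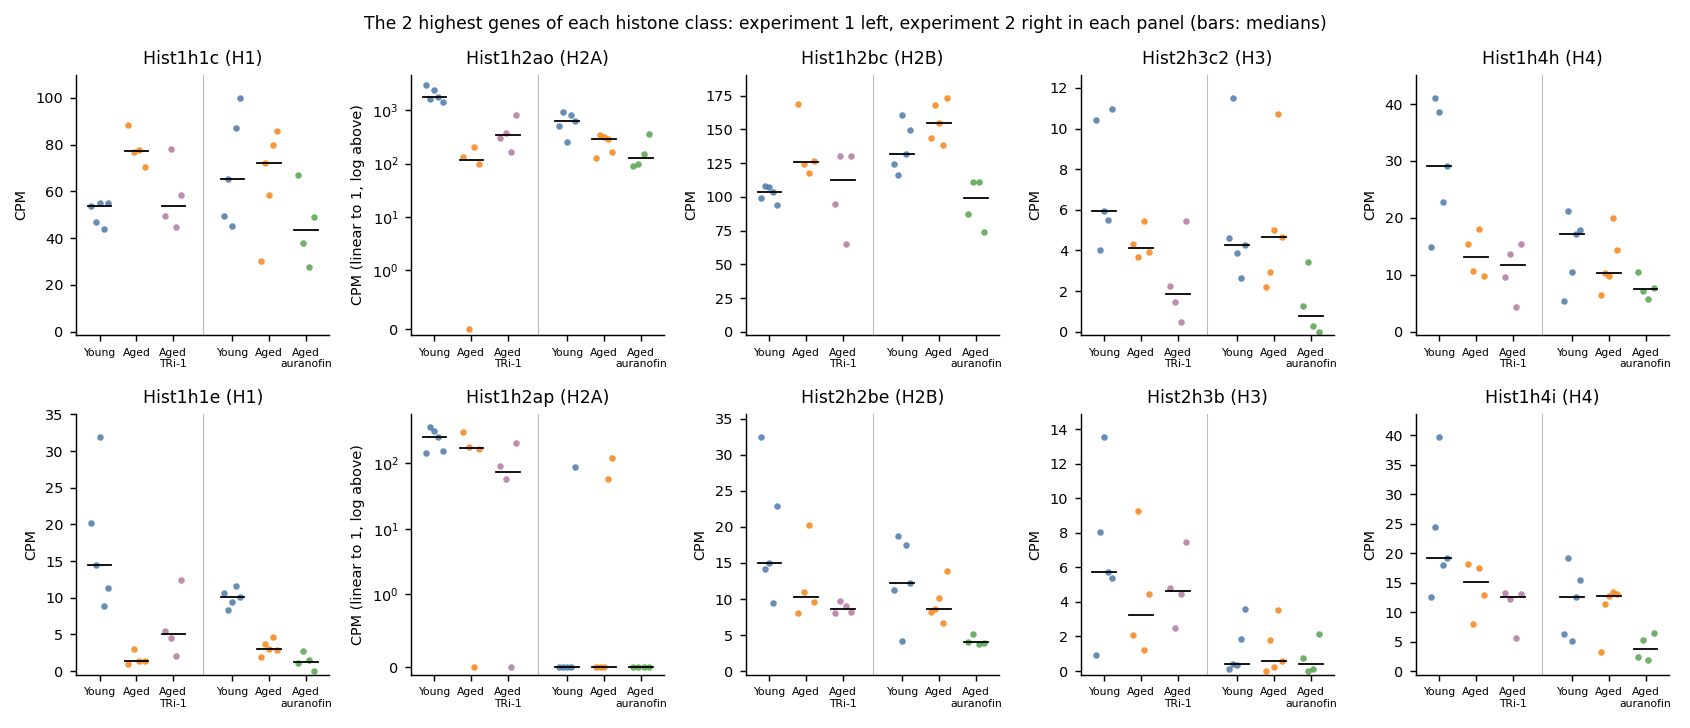
CPM of the 2 highest members of each histone class, 1 point per library, with group medians as bars; the axes of Hist1h2ao and Hist1h2ap are linear to 1 and logarithmic above. Hist1h2ao stood at 1416 to 2919 CPM in the young libraries of experiment 1 and at 0 to 202 in the aged ones, whereas Hist1h1c and Hist1h2bc were higher in each aged library than in each young one of that experiment.

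With age in experiment 1, most histone genes that passed the test were lower in the aged ovary, among them Hist1h2ao, Hist1h1e and 6 H4 genes, and Hist1h1c, Hist3h2a and Hist1h4m were higher. Of the 42 members tested there, 16 fell and 3 rose (edgeR's quasi-likelihood test, Benjamini-Hochberg adjusted p below 0.05), beside 16.4% of all 16028 genes tested called lower and 18.5% called higher. Among the 42, 36 estimates were below 0 and the median log2 change was -1.33, against 0.02 over all genes tested. The filter on low counts can keep a gene through 1 group, as with Hist1h2bn at 99 counts in young and 0 in aged libraries. It also counts near-identical copies apart, so the number of estimates below 0 and the median are descriptions and not support. The median was the same with Hist1h2bn, which had no count in the aged group, set at its bound. Each aged library lay below each young one for 9 of the 42 and above for 4, beside 13.6% and 14% of all genes tested. The other 11 members had too few counts to be tested.

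The member with the highest level fell. Hist1h2ao, an H2A gene, stood at 2919, 1594, 2407, 1768 and 1416 CPM in the 5 young libraries of experiment 1. In the 4 aged libraries it stood at 134.5, 0, 202 and 98.6 CPM, so that no aged library reached a young one. The log2 change was -4.21 ± 0.97 (SE) with an adjusted p of 0.0032. Its near-identical partner Hist1h2ap, whose last 200 transcript bases match it fully, stood at 140 to 353 CPM in young and 0 to 301 CPM in aged libraries, with a log2 change of -0.56 ± 1.12 and an adjusted p of 0.73. Since reads of one can count for the other, the sum of both was also tested: it was 1567 to 3059 CPM in young and 177 to 436 CPM in aged libraries, a log2 change of -3.06 ± 0.44 with an adjusted p of 7.8e-05.

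Without Hist1h2ao and Hist1h2ap, the summed level of the other 51 members was 403 to 693 CPM in young and 405 to 504.5 CPM in aged libraries of experiment 1, and the groups overlapped. With them, the sum of the 53 was 2790 ± 614 CPM (SD, n = 5) in young and 701 ± 164 CPM (SD, n = 4) in aged libraries. The fall of the sum was thus a fall of this pair in these libraries.

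Among the linker histones, Hist1h1e fell and Hist1h1c rose. Hist1h1e stood at 20.1, 14.4, 31.9, 8.85 and 11.4 CPM in young and at 0.985, 3.06, 1.40 and 1.43 CPM in aged libraries, with no overlap and a log2 change of -3.31 ± 0.55 (adjusted p = 0.00028). Hist1h1b fell with a log2 change of -2.84 ± 0.80 (adjusted p = 0.012), from 3.17 to 14.7 CPM in young to 0.374 to 2.43 CPM in aged libraries. Hist1h1c stood at 53.8, 47.1, 55.1, 44.0 and 54.9 CPM in young and at 88.4, 77.04, 77.8 and 70.7 CPM in aged libraries, each aged library above each young one. Its log2 change was 0.63 ± 0.18 with an adjusted p of 0.012, and 0.056 when 3 libraries were left out that earlier work on these data had set apart (TRi-1 replicate 1, aged replicate 3, young replicate 5). Hist1h1b then had an adjusted p of 0.073. The summed H1 level was 67.5 to 104 CPM in young and 75.8 to 96.3 CPM in aged libraries. Hist1h1e overlaps Hist1h2be on the same strand, so tags in the shared bases cannot be assigned to either with certainty.

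For the H2A and H2B genes, 6 fell and 1 rose in experiment 1. Besides Hist1h2ao, given above, Hist1h2ae fell (log2 change -2.82 ± 1.00, adjusted p = 0.038), and the call for Hist1h2ae was lost without any 1 of 6 libraries. Hist3h2a, a gene of the small Hist3 cluster with an annotated 3′ UTR of 1700 bases, rose from 30.8 to 39.8 CPM in young to 45.8 to 58.1 CPM in aged libraries (log2 change 0.52 ± 0.18, adjusted p = 0.029). That call was lost without any 1 of 7 libraries, and it stood at an adjusted p of 0.066 without the 3 set apart. The H2B genes Hist1h2bg and Hist1h2bp fell, with log2 changes of -3.90 ± 1.06 and -3.68 ± 1.04 (adjusted p = 0.0095 and 0.012), and the call for Hist1h2bp was lost without the 3 libraries set apart (adjusted p = 0.051). Hist1h2bn fell from 1.36, 7.75, 4.64, 0.120 and 1.61 CPM in young libraries to no count in the 4 aged ones (adjusted p = 0.005); 99 counts in young against a floor of 3 counts over the aged group made it at least 37.2-fold lower. Hist1h2br, with 81 counts in young and 1 in aged libraries, had a ratio of 91.4 (95% counting interval 15.9 to 3655, counting error only). Hist1h2bc, the highest H2B gene, stood at 94.0 to 108 CPM in young and 118 to 169 CPM in aged libraries, without overlap, yet its log2 change of 0.40 ± 0.20 did not pass (adjusted p = 0.13).

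The H3 and H4 genes that passed fell, with Hist1h4m as the exception. Hist1h3a and Hist1h3b fell with log2 changes of -2.81 ± 0.98 and -2.89 ± 1.02 (adjusted p = 0.036 and 0.037), and both calls were lost without young replicate 2 or 3 or aged replicate 4, and each without 1 or more other libraries. Of the 11 H4 genes tested, Hist1h4b, Hist1h4j, Hist1h4n, Hist4h4, Hist1h4d and Hist1h4h fell, with log2 changes from -3.35 for Hist1h4j to -1.11 for Hist1h4h. Hist1h4h, the highest of them, stood at 14.9, 41.1, 38.6, 22.7 and 29.2 CPM in young and at 15.4, 10.7, 18.1 and 9.82 CPM in aged libraries. Young replicate 1 was within the aged range, and the adjusted p was 0.027, a call lost without young replicate 2 or 3 or aged replicate 2 or 4. The call for Hist1h4d was lost without any 1 of 7 libraries. The summed H4 level was 53.2 to 212 CPM in young and 52.2 to 75.5 CPM in aged libraries, and the lowest young value was again that of replicate 1.

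**Figure D2:**
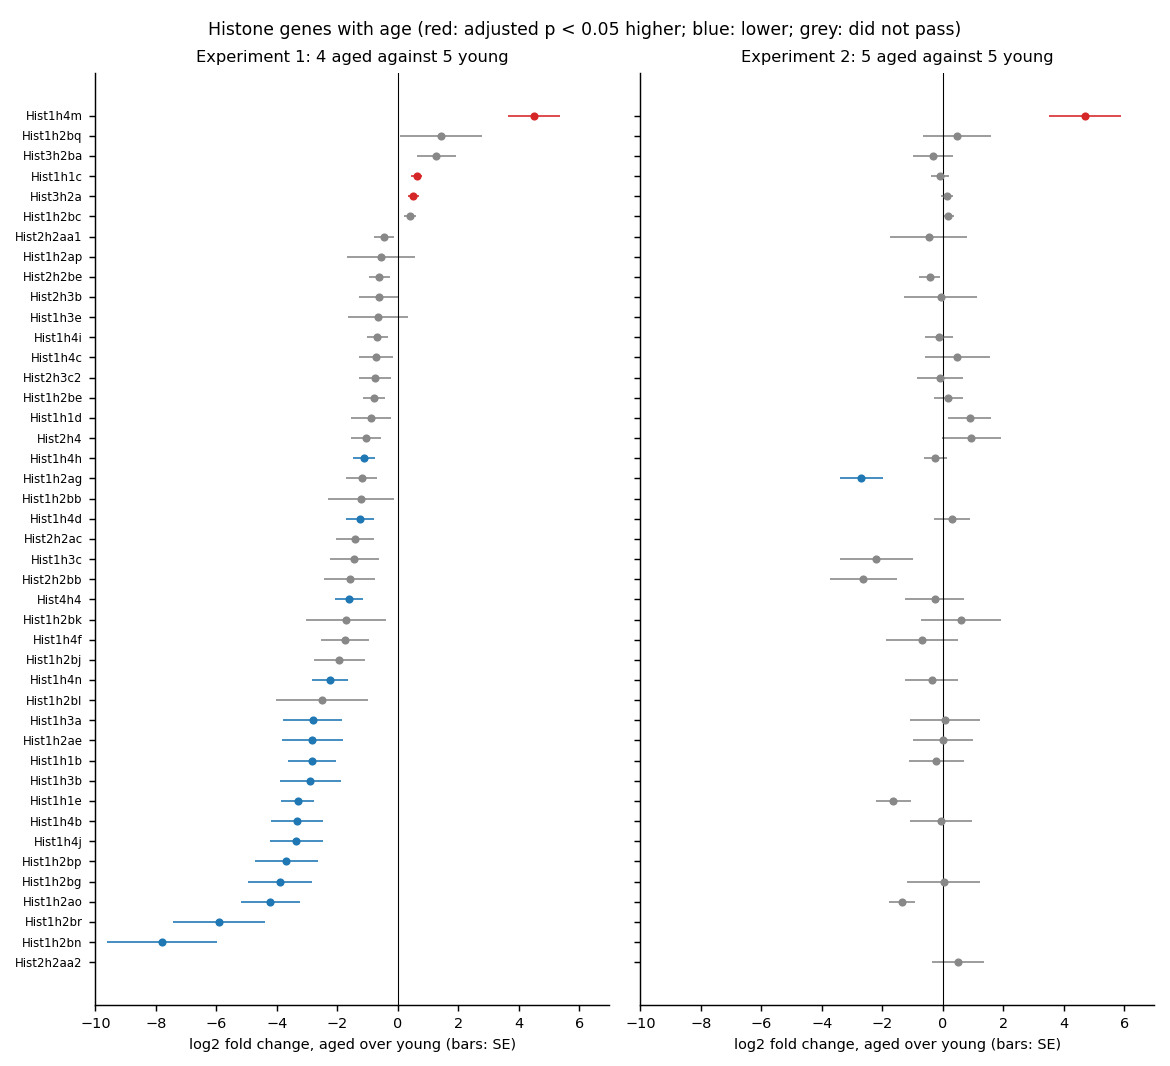
Log2 fold change of aged over young for each tested member in experiments 1 and 2, in the order of experiment 1, with standard errors as bars and calls in colour. In experiment 1, 16 members fell and 3 rose, and in experiment 2, 1 fell and 1 rose; empty rows are members not tested there.

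The calls for Hist1h4m did not hold for the sum of its near-identical pair. A shift in how reads were assigned and a shift between the genes themselves cannot be told apart here. Hist1h4m stood at 0, 0, 1.11, 1.195 and 0 CPM in young and at 10.2, 11.6, 10.4 and 9.23 CPM in aged libraries of experiment 1 (log2 change 4.50 ± 0.86, adjusted p = 0.00081). Its partner Hist1h4n, identical over the last 200 transcript bases, stood at 10.7, 49.0, 42.8, 23.3 and 23.8 CPM in young and at 8.38, 2.75, 2.71 and 11.3 CPM in aged libraries (log2 change -2.23 ± 0.59, adjusted p = 0.0079). Summed, the pair gave 10.7 to 49.0 CPM in young and 13.1 to 20.6 CPM in aged libraries, with a log2 change of -0.85 ± 0.41 that did not pass (adjusted p = 0.12). The direction for Hist1h4m thus does not hold for the pair, while the share of the pair counted for Hist1h4m went from 0% to 4.88% in young to 44.9% to 80.9% in aged libraries.

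Such pairs were common among the members. Among members with an annotated 3′ UTR of at least 20 bases, at least 95% identity over the last 200 transcript bases was found for 6 pairs, with 100% for Hist2h2aa1 and Hist2h2aa2, Hist1h2bq and Hist1h2br, Hist1h2ao and Hist1h2ap, Hist1h4m and Hist1h4n, and Hist1h3f and Hist1h3e, and 98.5% for Hist2h3c2 and Hist2h3b. Members with no or almost no annotated 3′ UTR end in coding sequence and can match others there: Hist1h2bn was 99% identical to Hist1h2bh over these bases, and Hist1h2af 98% to Hist1h2ao, so their counts are uncertain in the same way. For the pair Hist2h2aa1 and Hist2h2aa2 the split moved while the sum moved less: the share of its counts in Hist2h2aa2 ran from 0% in each of the TRi-1-treated libraries to 100% in auranofin replicates 1 and 2. The sum of that pair stayed between 28.1 and 82.7 CPM in the 27 libraries. No comparison passed for this sum, with log2 changes of -0.28 ± 0.18 and -0.13 ± 0.28 with age in experiments 1 and 2 (adjusted p = 0.25 and 0.84). Hist1h2br in the same way fell with age on its own, while its sum with Hist1h2bq did not pass (log2 change -1.08 ± 0.74, adjusted p = 0.27).

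**Figure D3:**
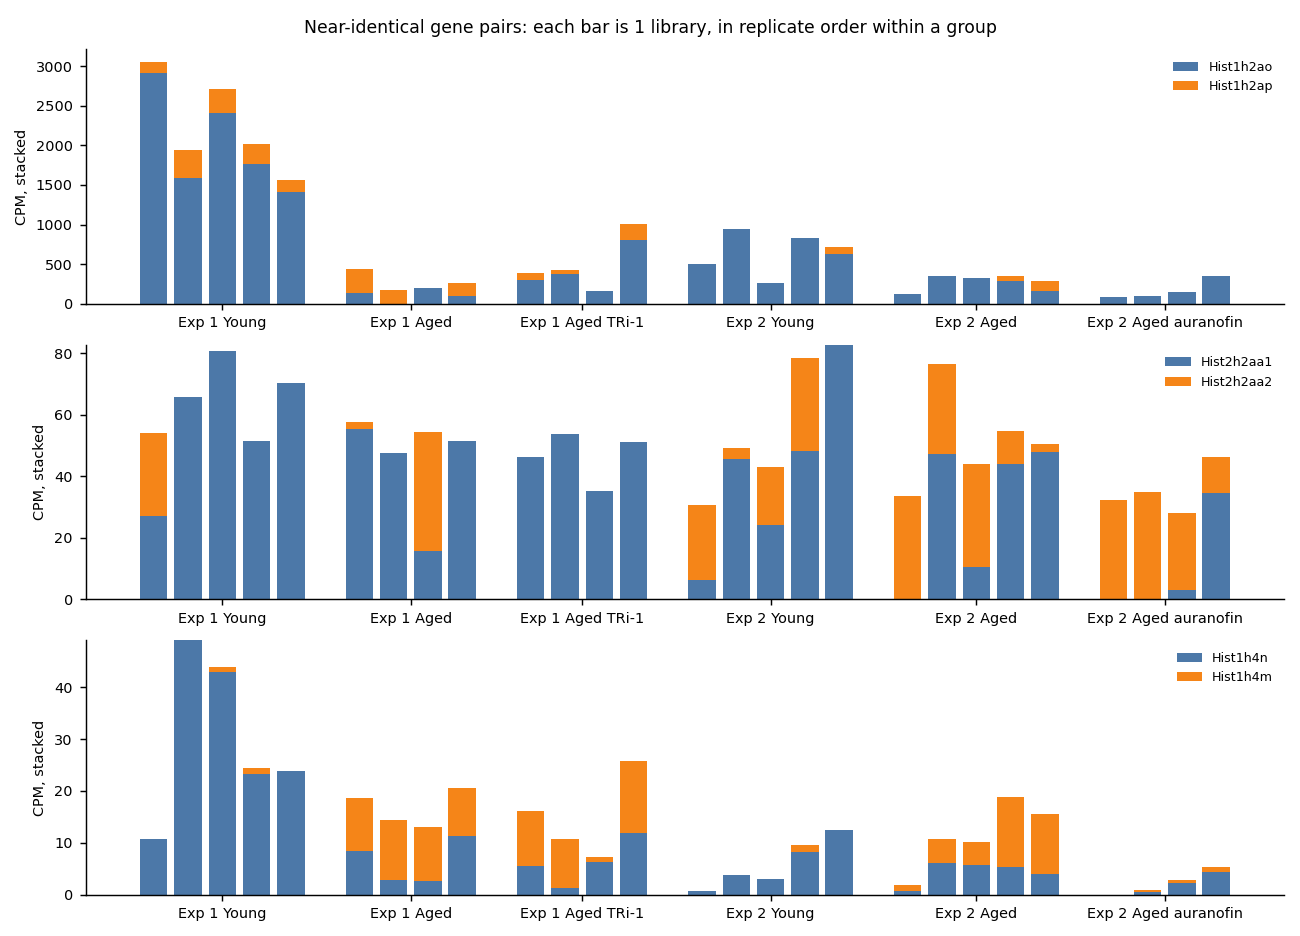
CPM of 3 near-identical pairs, stacked, with 1 bar per library in replicate order. The height of a bar is the sum of the pair and its colours show the split, which for Hist2h2aa1 and Hist2h2aa2 went from 0% to 100% between libraries while the sum stayed between 28.1 and 82.7 CPM.

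The members were also sorted by the annotated length of the 3′ UTR, which the selection did not use. For the 25 members with a 3′ UTR of up to 200 bases, the kind that ends soon after the stem-loop, the sum was 1757 to 3171 CPM in young and 272 to 544 CPM in aged libraries of experiment 1, without overlap. Most of that sum was Hist1h2ao and Hist1h2ap, with 1567 to 3059 and 177 to 436 CPM. The other 23 summed to 112 to 285 CPM in young and 95.2 to 108 CPM in aged libraries of experiment 1, where the lowest young and the highest aged library lay close together. In experiment 2 they summed to 46.8 to 147 and 45.1 to 118 CPM, with overlap. For the 21 members with a longer 3′ UTR the sums overlapped, with 264 to 379 CPM in young and 299 to 389 CPM in aged libraries. The 7 members with no annotated 3′ UTR summed to 5.99 to 28.7 CPM in young and 0.374 to 7.51 CPM in aged libraries. By gene, 9 of 20 tested members with a short 3′ UTR fell and 1 rose (median log2 change -1.73), and 5 of 18 with a long one fell and 2 rose (median -0.73). The difference between these sets was not tested.

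**Figure D4:**
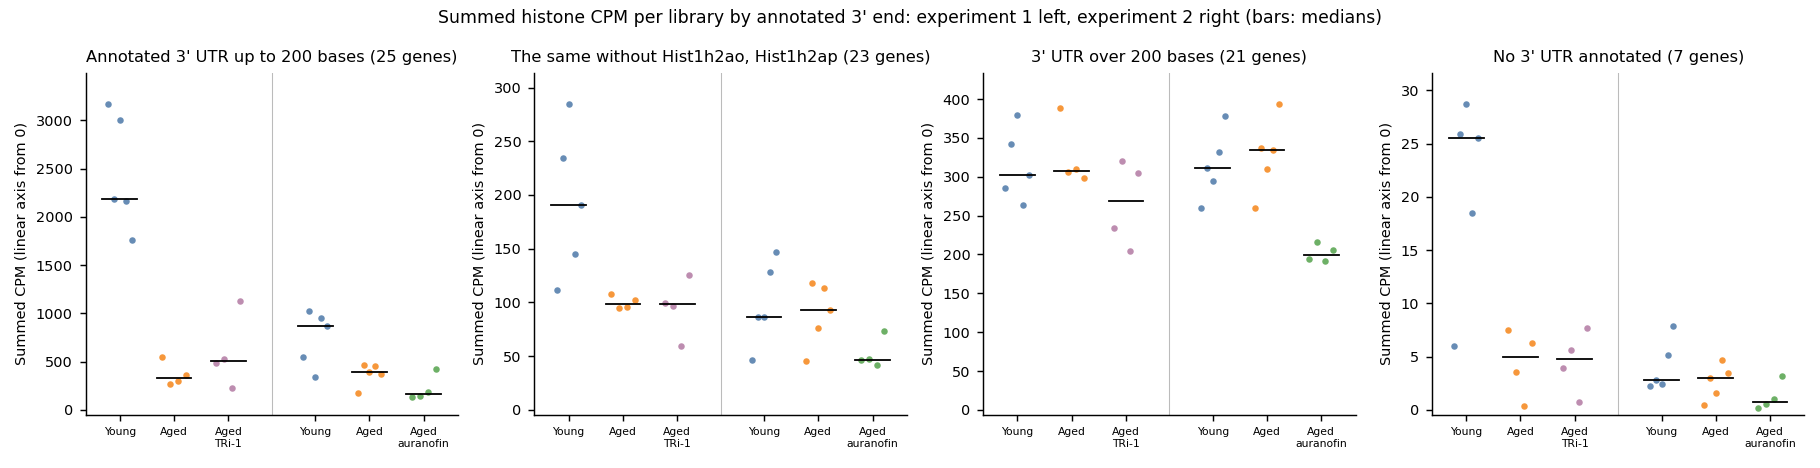
Summed CPM per library of the members by annotated 3′ UTR, with group medians as bars. The sum of the short class was 1757 to 3171 CPM in young and 272 to 544 CPM in aged libraries of experiment 1, mostly from Hist1h2ao and Hist1h2ap, and 112 to 285 and 95.2 to 108 CPM without them. The long class overlapped there and lay at 192 to 216 CPM under auranofin against 260 to 394 CPM in untreated aged libraries.

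The age comparison of experiment 2 gave fewer calls. Of 32 members tested, 1 rose and 1 fell, beside 5.86% and 4.59% of all 16309 genes tested called higher and lower, and the median log2 change was -0.07. Hist1h2ag, an H2A gene, stood at 3.91, 0.555, 4.11, 5.25 and 4.17 CPM in young and at 0.647, 0.0846, 1.02, 0.812 and 0.164 CPM in aged libraries, with overlap by young replicate 2. Its log2 change was -2.69 ± 0.70 with an adjusted p of 0.022. Hist1h4m stood at 0, 0, 0, 1.26 and 0 CPM in young and at 1.099, 4.65, 4.42, 13.4 and 11.65 CPM in aged libraries and rose again (log2 change 4.70, adjusted p = 0.02; its standard error is drawn in the plot of age changes), and again its sum with Hist1h4n did not pass (0.95 ± 0.84, adjusted p = 0.56). Each of these calls was lost without 1 aged library: Hist1h4m without replicate 4 (adjusted p = 0.055) and Hist1h2ag without replicate 5 (adjusted p = 0.051).

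Hist1h2ao stood at 502, 943, 257, 824 and 634 CPM in the young libraries of experiment 2 and at 126, 347, 321, 290.5 and 162.5 CPM in the aged ones. The 257 CPM belonged to young replicate 3, the library with the low oocyte and luteal markers, and was within the aged range. The log2 change of -1.35 ± 0.42 missed the threshold (adjusted p = 0.053). Without young replicate 3 it was -1.55 ± 0.40 with an adjusted p of 0.02. Of the 14 fits with 1 library left out, only this fit is given for Hist1h2ao, so it is a description. With all libraries, the sum of Hist1h2ao and its near-identical partner Hist1h2ap had a log2 change of -1.20 ± 0.41 and did not pass (adjusted p = 0.082). Hist1h1e stood at 8.32 to 11.6 CPM in young and 1.94 to 4.69 CPM in aged libraries, without overlap, and missed the threshold as well (log2 change -1.63 ± 0.59, adjusted p = 0.095). Of the 32 members tested, 1, Hist1h1e, lay lower in each aged library than in each young one and 0 lay higher, beside 4.70% and 6.46% of all genes tested.

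The young libraries of the 2 experiments differed in level. The sum of the 53 members was 2085 to 3462 CPM in young libraries of experiment 1 and 640 to 1343 CPM in those of experiment 2, without overlap, while the aged sums were 582 to 940 and 432 to 805 CPM. Experiment and these levels cannot be told apart. The test of whether the age change differed between experiments called 0 of 48 members, beside 0% of all 17484 genes tested in either direction. At an unadjusted p under 0.05 it held 8 of 48 members, beside 11.8% of all genes, and DESeq2 called 0. For Hist1h2ao the difference was 2.87 ± 1.04 on the log2 scale (adjusted p = 0.26).

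Over both experiments, 11 of 48 members fell and 2 rose with age, beside 17.8% and 17.5% of all genes called lower and higher. The falls included Hist1h1e (-2.47 ± 0.41, adjusted p = 3.1e-05), Hist1h2ao (-2.78 ± 0.55, adjusted p = 0.00027) and Hist1h2ag (-1.95 ± 0.43, adjusted p = 0.00084). Hist1h2af, with no count in the aged libraries of experiment 1 and 36 in the young ones, was at least 13.5-fold lower there and fell over both experiments (adjusted p = 0.014). Hist1h2bp, Hist1h3b, Hist2h2bb, Hist1h4j and Hist1h1b fell too, with log2 changes from -2.99 to -1.54, as did Hist1h2bn and Hist1h2br. Summed with its near-identical partner Hist1h2bq, Hist1h2br did not pass over both experiments (-0.46 ± 0.47, adjusted p = 0.48). The call for Hist1h1b (adjusted p = 0.048) was lost under 3 settings and without any 1 of 15 libraries, and that for Hist1h4j with the 3 libraries left out and without any 1 of 4. The call for Hist2h2bb was lost without young replicate 5 of experiment 2, and those for Hist1h2bn and Hist1h2br with the replicate block. The rises were Hist1h4m, which held only within its pair, and Hist3h2a (0.32 ± 0.13, adjusted p = 0.048), a call lost under 6 alternative settings and without most single libraries. These values rest on the same libraries as those of the single experiments, and the age and drug comparisons of an experiment share its untreated aged libraries. Without young replicate 5 of experiment 2, 7 members fell over both. The sum of Hist1h2ao and Hist1h2ap had a log2 change of -2.13 ± 0.32 with age over both experiments (adjusted p = 9.2e-06).

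Markers of the cell types that make up the ovary moved in the same libraries, and their part in the histone values was not tested. In experiment 1 all 9 oocyte genes and 4 of 5 tested granulosa genes fell with age, the oocyte sum going from 159 to 311 CPM in young to 6.38 to 11.5 CPM in aged libraries and the granulosa sum from 261 to 792 to 31.2 to 135 CPM. All 6 macrophage, 5 B and plasma cell, 5 T cell, 5 erythroid and 4 endothelial genes rose there, and 1 of 5 theca and luteal genes fell. In experiment 2, 5 of 8 tested oocyte genes and 2 of 5 granulosa genes fell. In the same comparison all 6 macrophage, 5 B and plasma cell and 5 T cell genes and 1 of 5 erythroid genes rose, and 0 theca and luteal and 0 endothelial genes passed. The oocyte sums were 4.11 to 129 CPM in young and 3.69 to 9.93 CPM in aged libraries.

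The genes that act with the histone genes were followed as lists. Beside them, 16.4% of all genes tested were called lower and 18.5% higher with age in experiment 1. In experiment 2 these shares were 4.59% and 5.86%. Of 30 genes of S phase and DNA replication, 15 fell and 1 rose with age in experiment 1 and 4 fell in experiment 2. Pola1, the catalytic subunit of the polymerase that primes DNA synthesis, had log2 changes of -2.68 ± 0.30 and -2.11 ± 0.38 (adjusted p = 1.2e-05 and 0.0024). Of 14 genes of histone gene transcription, 3 fell and 1 rose in either experiment. The gene that rose was E2f2 in both (1.83 ± 0.38 and 1.85 ± 0.42, adjusted p = 0.0015 and 0.01). Npat, the coactivator of histone loci, fell by 1.91 ± 0.26 and 1.97 ± 0.33 on the log2 scale (adjusted p = 5.8e-05 and 0.0016), and so did Ccne2, a cyclin E (-2.62 ± 0.38 and -2.27 ± 0.42, adjusted p = 8.2e-05 and 0.0029).

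Of 20 genes of histone RNA 3′ end processing and decay, 6 fell and 4 rose in experiment 1, beside 16.4% and 18.5% of all genes. In experiment 2, 2 fell, beside 4.59%. Tut4, a terminal uridylyltransferase, fell in both (log2 changes -2.20 ± 0.24 and -1.45 ± 0.30, adjusted p = 9e-06 and 0.0055), as did Casp8ap2, a factor of histone pre-mRNA processing (-1.71 ± 0.30 and -1.32 ± 0.28, adjusted p = 0.00038 and 0.0068). Slbp, named after its values were seen for its role at the stem-loop, fell in experiment 1 (-1.17 ± 0.28, adjusted p = 0.004) from a median of 40.0 to 18.6 CPM, and in experiment 2 did not pass (-0.32 ± 0.28, adjusted p = 0.55). Of 22 histone chaperones, 10 fell and 1 rose in experiment 1 and 7 fell in experiment 2, among them Supt16, a subunit of the FACT complex (-2.78 ± 0.33 and -1.79 ± 0.37, adjusted p = 1.7e-05 and 0.0057).

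The replication-independent variants, which are mostly polyadenylated and made through the cell cycle, were a further list: of 12 tested, 3 fell and 1 rose in experiment 1, beside the 16.4% and 18.5% of all genes, and 1 fell in experiment 2, beside 4.59%. H2afz fell in both, with log2 changes of -0.65 ± 0.17 and -0.78 ± 0.24 (adjusted p = 0.0078 and 0.048). H1foo, the linker histone of the oocyte and also a gene of the oocyte list, fell in experiment 1 (adjusted p = 3.4e-06), from a median of 54.6 CPM in young libraries to no count in 3 of 4 aged ones. The summed variant level was 2608 to 2906 CPM in young and 2247 to 2754 CPM in aged libraries of experiment 1, so that the groups overlapped.

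TRi-1 left no histone gene past the threshold in the aged ovary. Of 42 members tested, edgeR called 0, beside 0.175% of all genes called higher and 0.243% called lower. At an unadjusted p under 0.05 it held 8 of 42, beside 16.5% of all genes, and DESeq2 called 1 higher, Hist1h1e. The estimates were divided, with 20 above and 22 below 0. Hist1h1e stood at 5.48, 4.51, 2.10 and 12.4 CPM with TRi-1 against 0.985 to 3.06 CPM in untreated aged libraries, a log2 difference of 1.79 ± 0.55 (adjusted p = 0.13), and replicate 3 was within the untreated range. Hist1h2ao stood at 297, 374, 167 and 802 CPM against 0 to 202 CPM (log2 difference 1.90 ± 0.89, adjusted p = 0.3), and its sum with Hist1h2ap at 167 to 1005 against 177 to 436 CPM (0.87 ± 0.42, adjusted p = 0.31). Hist1h2bn had 41 counts with TRi-1 and none without, a level at least 13.9-fold higher, with an adjusted p of 0.13. Hist1h2be, an H2B gene chosen after its values were seen, was the 1 of 42 tested members whose groups did not overlap, beside 4.57% of all genes that lay lower in each treated library and 4.50% that lay higher. It stood at 2.06 to 3.22 CPM with TRi-1 and 3.88 to 4.45 CPM without (-0.84 ± 0.38, adjusted p = 0.28). Since Hist1h2be overlaps Hist1h1e on the same strand, tags in the shared bases may count for either gene.

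The highest of these libraries was TRi-1 replicate 4, with a sum of 1443 CPM over the 53 members against 431.5 to 854 CPM in the other 3. In the same library the granulosa sum was 1265 CPM, against 62.8 to 173 CPM in the other 3 and 31.2 to 135 CPM in the untreated aged libraries. No granulosa gene passed for TRi-1, with a median log2 difference of 1.96 over the 5 tested. The part of granulosa cells in the histone values was not tested.

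Under auranofin most histone estimates were below 0, and none passed. Of 32 members tested, edgeR called 0, beside 0.0184% of all genes called higher and 0% called lower. At an unadjusted p under 0.05 it held 11 of 32, beside 7.04% of all genes, and DESeq2 called 2 lower. Estimates were below 0 for 28 of 32, with a median of -1.31 against 0.02 over all 16309 genes. As with age, the filter can keep a gene through 1 group, so these values are descriptions. By class, all 10 H4 genes were below 0 with a median of -2.34, as were all 4 H1 genes, 7 of 8 H2B genes, 4 of 6 H2A genes and 3 of 4 H3 genes.

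Hist1h4d had the smallest p of the members. It stood at 0.225, 0.320, 0 and 0.2497 CPM with auranofin and at 1.49, 1.95, 2.21, 2.98 and 7.38 CPM without, without overlap, a log2 difference of -3.92 ± 0.78 (adjusted p = 0.27). Hist1h2bc, the highest H2B gene, stood at 87.0, 111, 111 and 74.1 CPM against 144, 168, 155, 139 and 173 CPM, also without overlap (-0.71 ± 0.19, adjusted p = 0.41). Hist2h2be stood at 4.05, 5.18, 3.78 and 3.91 CPM against 6.68 to 13.9 CPM (-1.18 ± 0.38, adjusted p = 0.5). Each of these genes was thus lower in each treated library, while none passed over the whole table. With Hist1h4m, 4 of 32 members lay lower in each treated library and 0 higher, beside 1.54% and 1.99% of all genes tested.

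The sums showed the same direction. The 53 members summed to 330 to 635 CPM with auranofin and 432 to 805 CPM without, with overlap by auranofin replicate 4 and untreated replicate 1. The sum of the H2B genes was 96.5 to 122 CPM against 156 to 200 CPM, and that of members with a long 3′ UTR 192 to 216 CPM against 260 to 394 CPM, both without overlap. Hist1h2bc, given above, made up most of the H2B sum and is also part of the long class. These sums are thus not separate from the values of that gene. The H4 sum was 11.7 to 32.5 CPM against 16.4 to 75.3 CPM. Untreated replicate 1 had 33 members with a count and the others 41 to 44, while the auranofin libraries had 24 to 34.

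In the lists, 0 of 30 replication genes passed for auranofin, with a median log2 difference of -0.32 and 4 at an unadjusted p under 0.05. The replication sum was 350 to 519 CPM with auranofin and 433 to 578 CPM without. Of the B and plasma cell genes 0 passed, with a median of -1.26 and sums of 53.7 to 925.5 CPM against 435.5 to 941.5 CPM. The theca and luteal, oocyte, T cell and erythroid lists had medians of -1.19, -0.88, -0.51 and -0.28. Medians of the macrophage, granulosa and endothelial lists were 0.01, 0.22 and 0.49, and no gene of these lists passed. The part of these cell types in the histone values was not tested. The lists of 3′ end processing, transcription and chaperones had medians of 0.10, -0.13 and 0.10.

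**Figure D5:**
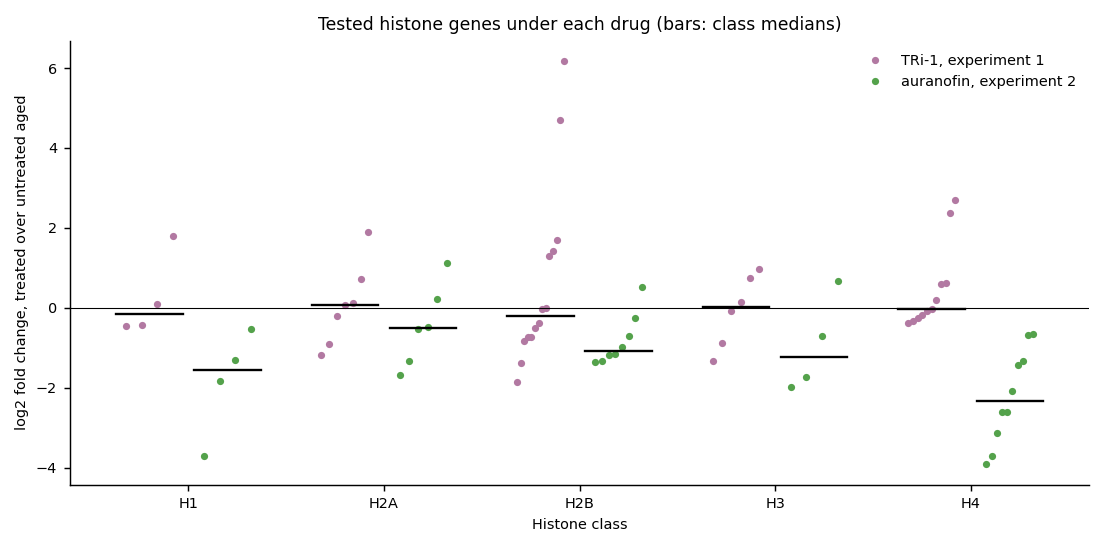
Log2 fold change of treated over untreated aged ovary for each tested member by histone class and drug, with class medians as bars. All 10 tested H4 genes lay below 0 under auranofin with a median of -2.34, against -0.04 over 11 under TRi-1; the highest H2B point under TRi-1 is Hist1h2bn, which had no count in untreated aged libraries.

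The difference between the effects of the 2 drugs was tested in 1 fit of all libraries, where drug and experiment cannot be told apart. Of 48 members edgeR called 0, beside 0.0172% of all genes called higher and 0% lower. At an unadjusted p under 0.05 it held 15 of 48, beside 10.9% of all genes, and DESeq2 called 1 higher and 4 lower. The difference was below 0, that is lower under auranofin, for 39 of 48. Hist1h4d had the smallest p again (-4.10 ± 0.85 on the log2 scale, adjusted p = 0.09), and for Hist1h1e the difference was -3.11 ± 0.85 (adjusted p = 0.2). For the sum of Hist1h2ao and Hist1h2ap it was -1.60 ± 0.65 (adjusted p = 0.37).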

How the data were processed

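The authors deposited a table of raw counts, whole numbers with 1 row per gene and 27 library columns, and each column was assigned from its label (0 belonged elsewhere). RSEM 1.2.3, DESeq2 and mm10 appear in the submitters' processing notes, without roles. Which annotation and strand setting were used is not given in the sources used here. Tags of overlapping genes (15 members on the opposite strand, 6 on the same) and of near-identical copies may count for either. GENCODE M21 (GRCm38) gave symbols, positions and transcripts.

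The members and all gene lists were chosen with earlier results of these data known. Tests were edgeR's (4.0.16, under R 4.3.3) quasi-likelihood F tests after filterByExpr and TMM scaling. P-values were adjusted by Benjamini-Hochberg over every gene tested, and an adjusted p below 0.05 was a call. One fit per experiment held its 3 groups (13 or 14 libraries), while age over both experiments and differences of effects came from 1 fit of 27. Each standard error was the size of the log2 change over the root of F. The fits were tested on simulated counts. Named were the 2 highest members of each class, members that passed (at most 12 per direction) and, of companion lists, the 2 smallest p. Other members, and list genes named for their role, were chosen after their values were seen. Counting intervals (exact, 95%) and floors (3 counts over a group) cover counting error only. Over 48 pairs of libraries within groups the chi-square per gene was at least 20.5, so none was a copy. Alternatives were RLE, DESeq2 1.42.0, other filters and sample sets, a replicate block, and libraries left out; summing the near-identical pairs was added after seeing the data. Plots used matplotlib 3.10.9.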

Additional observations from a re-analysis of the deposited data

Results flagged for a closer look

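Within groups of 4 or 5 libraries, single values that stood far from the other libraries of their group were looked for in the 10 highest members, the summed level and the class sums, with 96 groups tested. Chance marks about 1 in 20. Hist1h2ap had 87.8 CPM in young replicate 5 of experiment 2 and no count in the other 4, where its partner Hist1h2ao held all counts of the pair. Hist2h3c2 was high in young replicate 2 of experiment 2, at 11.5 CPM against 4.61 in the next library. Hist1h4i was low in TRi-1 replicate 3, at 5.52 CPM against 12.25 in the next, and in untreated aged replicate 1 of experiment 2, at 3.23 against 11.4 CPM. In the latter library the sum of the 53 members was also low, at 432 CPM against 708 in the next. The H2B sum was high in untreated aged replicate 1 of experiment 1, at 201 CPM against 150.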

How the results depend on the processing

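The fits with the replicate number as a block called 2 members higher and 13 lower with age in experiment 1, 1 and 2 in experiment 2, and 1 and 10 over both. Same-numbered libraries did not deviate together (median correlation -0.08 and 0.03), so the numbers were not taken as pairs. With age in experiment 1, the 16 falls became 6 at a mean of at least 5 CPM. The 3 rises became 1 with 3 libraries left out that earlier work on these data had set apart (TRi-1 replicate 1, aged replicate 3, young replicate 5). Leaving these out also lost the falls of Hist1h2bp, Hist1h1b, Hist1h3b, Hist1h2ae and Hist1h4d. Members below 5 CPM were not tested under that filter, and 12 members reached this mean over the 27 libraries. Of called members still tested under it, only Hist3h2a over both experiments lost its call. In experiment 2 the 1 rise became 0 at 5 CPM and with near-identical pairs summed, and the 1 fall became 3 with DESeq2 and with only the groups compared and 2 with no filter, with the block and with all 27 libraries. Over both experiments the 2 rises became 0 at 5 CPM and 1 with RLE, DESeq2, no filter, the block, the 3 libraries left out or pairs summed, and the 11 falls became 17 with DESeq2 and 3 at 5 CPM. For TRi-1 DESeq2 called 1 higher, for auranofin it called 2 lower and the fit of all 27 libraries 1 lower, and for the drugs' difference DESeq2 called 1 higher and 4 lower. With each library left out in turn, rises and falls were 2 to 3 and 11 to 18 with age in experiment 1, 0 to 1 and 0 to 3 in experiment 2, 1 to 3 and 7 to 16 over both, and 0 to 0 and 0 to 1 for the drugs' difference. No called member changed sign. Of 96 estimates for named members, 2410 recomputed values kept the side of the threshold, 110 lost the call and 38 gained it. For members not called, the sign was not compared. Low counts limit most members, of which 16 had a mean under 1 CPM.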
